A study of Mus musculus with 2 samples.

Results

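Every let-7 hairpin gives a pair of mature strands, and this account covers the strand cut from the 3′ side (3p, the passenger strand) in the newborn mouse retina. The members were the 3p rows of 10 let-7 hairpins, chosen by name, of 1358 miRNA rows in all. They were let-7a-1-3p, let-7b-3p, let-7c-1-3p, let-7c-2-3p, let-7d-3p, let-7e-3p, let-7f-1-3p, let-7f-2-3p, let-7g-3p and let-7i-3p, and all 10 were found in both libraries. Retinas of CD-1 mice, an outbred strain, were taken at postnatal day 0 from wild-type animals, and their small RNA was sequenced. It holds 1 group with 2 libraries, named replicate 1 and replicate 2, and no condition to compare. The labels do not say whether the replicates came from separate animals, so their spread may be only technical.

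let-7 miRNAs are a conserved family that accumulates as cells leave the progenitor state, and in the developing retina they are known as part of the timing of neurogenesis. Drosha cuts the hairpin out of a long primary transcript, Dicer removes the loop, and an Argonaute protein keeps a strand of the resulting duplex. For let-7 the kept strand is usually the 5p strand (the guide), and the 3p strand is mostly degraded. The 5p sequences are so alike that several hairpin copies share the same 5p. The 3p sequences differ more, so 3p reads can show which copy they came from.

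The 3p sequences are shown because they decide which hairpins can be told apart. They are the mature entries of RefSeq (GRCm38.p6), written 5′ to 3′, with the seed (bases 2 to 8, the part that pairs with targets) in capitals. All 10 members had an entry.
let-7d-3p: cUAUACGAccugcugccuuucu
let-7a-1-3p: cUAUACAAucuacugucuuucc
let-7c-2-3p: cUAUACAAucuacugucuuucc
let-7b-3p: cUAUACAAccuacugccuuccc
let-7f-1-3p: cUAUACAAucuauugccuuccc
let-7f-2-3p: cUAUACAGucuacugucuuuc
let-7e-3p: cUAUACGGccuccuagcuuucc
let-7c-1-3p: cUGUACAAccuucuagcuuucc
let-7g-3p: aCUGUACAggccacugccuugc
let-7i-3p: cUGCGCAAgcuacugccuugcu

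The 10 entries held 9 distinct sequences, because let-7a-1-3p and let-7c-2-3p are identical. They held 7 distinct seeds. let-7a-1-3p, let-7b-3p, let-7c-2-3p and let-7f-1-3p shared the seed UAUACAA, which in the RefSeq table is also that of miR-98-3p, from the hairpin of the let-7 relative miR-98. Each of the other 6 members had a seed that no other mature mouse miRNA in that table carried. Over the 45 pairs of members, identity ran from 50% (let-7e-3p and let-7i-3p) to 100%, with a median of 76.2%. The 28 pairs of the 8 let-7 guides were closer, from 72.7% to 95.5% with a median of 86.4%. A letter-by-letter comparison allowed a shift of at most 1 base. GC content of the members ran from 36.4% to 59.1%, and 9 of the 10 entries start with C.

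The hairpins lie on 7 chromosomes of GRCm38. On the minus strand of chromosome 13, Mirlet7d (48536012 to 48536114), Mirlet7f-1 (48537829 to 48537917) and Mirlet7a-1 (48538179 to 48538272) lie within 2261 bases, in an exon of the lincRNA 6720427I07Rik. On the plus strand of chromosome 15, Mirlet7c-2 (85706603 to 85706697) and Mirlet7b (85707319 to 85707403) lie within 801 bases of the transcript Lncppara. Mirlet7b is in its exon, and Mirlet7c-2 is exonic in 1 of 2 annotated transcripts. Mirlet7f-2 on chromosome X (151912346 to 151912428) lies in an intron of Huwe1 beside Mir98. Mirlet7c-1 on chromosome 16 (77599657 to 77599750) lies in an intron of Mir99ahg, Mirlet7e on chromosome 17 (17830352 to 17830444) in an intron of Spaca6, and Mirlet7g on chromosome 9 (106178840 to 106178927) in an intron of Wdr82. Mirlet7i on the minus strand of chromosome 10 (122985640 to 122985724) overlaps the transcribed pseudogene D630033A02Rik.

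The hairpins of let-7a-1 and let-7c-2 are shown whole, with the shared 3p strand in capitals, because reads of that strand cannot be assigned to either hairpin.
Mirlet7a-1: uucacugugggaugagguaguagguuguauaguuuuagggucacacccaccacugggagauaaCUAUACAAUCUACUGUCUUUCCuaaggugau
Mirlet7c-2: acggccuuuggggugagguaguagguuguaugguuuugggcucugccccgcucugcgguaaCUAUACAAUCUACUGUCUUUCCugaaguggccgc
The letters GGAG, the motif bound by the let-7 repressor LIN28, lie in the loop between the strands of let-7a-1 and not in that of let-7c-2. The loop, 23 to 34 bases long and searched on the RNA strand only, held GGAG in 8 of the 10 hairpins, all but let-7b and let-7c-2. Of 42 other mouse hairpins with loops in this range of lengths, 11.9% held it. GGAG was the only motif searched, and a match is a description of the letters only.

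The libraries held 8337902 and 8118208 estimated counts, in which reads that fitted several miRNAs appear as split values. Levels are given as CPM, the count scaled to a library total of 1000000. A strand with no count could still lie at up to 0.36 CPM in replicate 1 or 0.37 CPM in replicate 2. The label of retina was checked against 7 miRNAs known from neural retina, among them miR-9-5p and miR-182-5p. All 7 were detected, with a summed level of 421587 and 439452 CPM. Most of this was miR-9-5p, at 226008 and 228391 CPM. The lowest of the 7 was miR-124-3p, at 701 and 597 CPM, which is below the vessel marker miR-126a-3p. Markers of pigment epithelium and lens summed to 4528 and 3869 CPM over 4 miRNAs with miR-205-5p at 0. Most of this was miR-204-5p, at 3784 and 2994 CPM, and miR-211-5p was at 5.94 and 5.30 CPM. Vessel markers summed to 1027 and 906 CPM over 3 miRNAs. Most of this was miR-126a-3p, at 969 and 840 CPM, and miR-145a-5p was at 0.12 and 0.25 CPM. Blood markers summed to 61.8 and 63.5 CPM over 4 miRNAs with miR-223-3p and miR-150-5p at 0. Nearly all of this was miR-486a-5p, at 61.5 and 63.1 CPM, and miR-451a was at 0.36 and 0.37 CPM. Muscle markers summed to 87.4 and 90.5 CPM over 2 miRNAs, and the liver marker miR-122-5p was at 20.7 and 21.1 CPM. A level in whole tissue cannot tell fewer cells of a type from less RNA per cell, and the part of these other cells in the let-7 levels was not tested.

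The passenger strands were a very small part of the let-7 RNA, and let-7d-3p alone made up nearly as much as the other 9 members together. Over the 10 members the level was 498 CPM in replicate 1 against 381 CPM in replicate 2, a mean of 439 ± 82.7 CPM (SD, n = 2). This was 0.242% ± 0.0503 of the counts of both let-7 strands. let-7d-3p, the passenger of the only let-7d hairpin, held 1944 and 1519 counts, or 233 CPM (exact 95% interval 223 to 244) and 187 CPM (178 to 197). Its mean of 210.1 ± 32.6 CPM was rank 138 of 1358, and it made up 48.0% ± 1.63 of the members' counts.

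The shared strand of let-7a-1 and let-7c-2 came second. Each of its rows held 758.5 and 508.5 counts, or 91.0 and 62.6 CPM, which is 1517 and 1017 reads divided evenly. The sum of both rows made up 34.7% ± 2.58 of the members' counts. let-7d-3p exceeded this whole sum in both libraries, by a log2 ratio of 0.47 ± 0.16 (SD, n = 2).

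let-7e-3p followed at 338 and 239 counts, or 40.5 and 29.4 CPM, and let-7f-2-3p at 193 and 183 counts, or 23.1 and 22.5 CPM. These 5 strands were the members at 10 CPM or more in both libraries. let-7i-3p, the passenger of the most abundant let-7 guide, reached only 57 and 62 counts, or 6.84 and 7.64 CPM. let-7c-1-3p held 55 and 30 counts, or 6.60 and 3.70 CPM, and let-7f-1-3p held 28 and 27, or 3.36 and 3.33 CPM.

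The lowest members were let-7b-3p at 11 and 8 counts, or 1.32 and 0.985 CPM, and let-7g-3p at 6 and 5 counts, or 0.72 and 0.616 CPM. The exact 95% interval of let-7g-3p ran from 0.264 to 1.57 CPM in replicate 1 and from 0.2 to 1.44 CPM in replicate 2, so its level is known only roughly. The reads were amplified and carry no molecular identifiers, so all intervals given here cover counting error only.

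**Figure D1:**
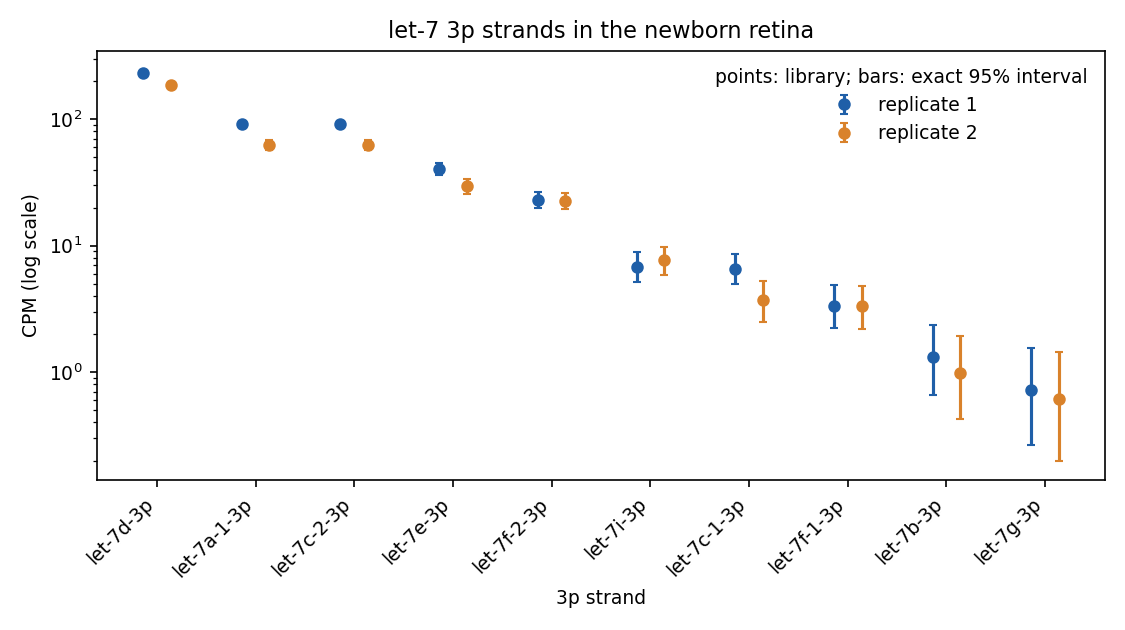
CPM of each let-7 3p strand (log axis) in replicate 1 and replicate 2, ordered by mean level, with exact 95% intervals of counting error as bars. Levels run from 210.1 CPM for let-7d-3p to 0.668 CPM for let-7g-3p, and let-7a-1-3p and let-7c-2-3p are equal because their reads were split.

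Not every step in this order was larger than the spread. Neighbouring levels were called apart where the upper strand held over 50% of the counts of the pair by the exact 95% interval in both libraries and their log2 ratio averaged over 2 SD. With the identical rows taken as 1 place, 4 of the 8 steps were apart. They were let-7d-3p over let-7a-1-3p, that strand over let-7e-3p, let-7f-2-3p over let-7i-3p (log2 ratio 1.65 ± 0.14) and let-7f-1-3p over let-7b-3p (1.50 ± 0.27). let-7e-3p lay above let-7f-2-3p in both libraries, but the mean log2 ratio of 0.60 ± 0.30 was within 2 SD. let-7i-3p and let-7c-1-3p held nearly equal counts in replicate 1 and differed by a log2 ratio of 1.04 in replicate 2. Their order, and that of let-7c-1-3p and let-7f-1-3p (0.56 ± 0.57), cannot be given. The step from let-7b-3p to let-7g-3p (0.73 ± 0.14) was not detectable at this depth.

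Hairpins next to each other in the genome gave very unequal passenger levels. In the chromosome 13 cluster, let-7d-3p exceeded let-7f-1-3p by 61.4-fold (log2 ratio 5.94 ± 0.22, SD, n = 2), and the pair was apart by the rule above. The guides of the same names had the opposite order, with let-7d-5p below let-7f-5p by a log2 ratio of -2.09 ± 0.23, though let-7f-5p also comes from chromosome X. The ligation yield of each sequence is part of every ratio between strands. In the chromosome 15 cluster, let-7b-3p and let-7c-2-3p cannot be ordered, because the level of let-7c-2-3p cannot be given apart from that of let-7a-1-3p. On chromosome X, let-7f-2-3p exceeded miR-98-3p, at 43 and 32 counts, by 5.01-fold (log2 ratio 2.33 ± 0.24, apart).

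Among copies that share a guide, only those of let-7f could be compared in passenger level, and they differed. let-7f-5p is cut from both let-7f hairpins, and of their 3p reads let-7f-2 on chromosome X gave 87.3% in replicate 1 (exact 95% interval 82.2% to 91.4%) and 87.1% in replicate 2 (81.8% to 91.4%). let-7f-1 on chromosome 13 gave the rest, a 6.73-fold difference (log2 ratio 2.75 ± 0.018). Both sequences are distinct and their counts are whole numbers, so no reads appear as split between them. For let-7a, the second hairpin let-7a-2, which is not a member, had a 3p strand with 1 count in replicate 1 and 0 in replicate 2. For let-7c, let-7c-1-3p held 55 and 30 counts, and the reads of let-7c-2-3p lie anywhere between 0 and the shared 1517 and 1017. These shares describe the 3p strands only and say nothing of which copy gave the guide.

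In all 8 let-7 names the 3p strand was the lower one, by ratios that spread over a wide range. A name stands here for a guide and the sum of the 3p strands of its copies, and the ratio is the log2 of the 3p count over the 5p count within a library, with 0.5 added to each count. With shared 3p reads split evenly, the median over the 8 names was -9.02, and over all 337 hairpin names tested it was -0.54. In let-7d the 3p strand was at 1944 and 1519 counts against 63294 and 51456 for the 5p strand, which is 2.98% and 2.87% of the hairpin's reads (log2 ratio -5.05 ± 0.040, SD, n = 2). In let-7e it was 338 and 239 counts against 24215 and 23180 (-6.38 ± 0.31), and in let-7c 814 and 538 against 78112 and 69008 (-6.79 ± 0.30). These were the 3 least uneven names with the shared 3p reads split evenly. Without any of the shared reads, let-7c would hold only the 55 and 30 counts of let-7c-1-3p (-10.80), and its place would pass to let-7a.

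let-7a stood in the middle, with 760 and 508 counts of 3p against 155302 and 142036 of 5p (-7.90 ± 0.32). Since let-7a and let-7c share 3p reads, they are safer joined, and together 3p made up 0.669% and 0.494% of their reads (-7.43 ± 0.31). let-7f followed at 221 and 210 counts against 240478 and 245152 (-10.13 ± 0.072). let-7b had 11 and 8 counts against 29548 and 25509 (-11.44 ± 0.16).

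The most uneven names were let-7i and let-7g. let-7i had 57 and 62 counts of 3p against 802564 and 829746 of 5p (-13.73 ± 0.051), and let-7g had 6 and 5 against 96369 and 106817 (-14.05 ± 0.28). Their 3p strands made up 0.00729% ± 0.000262 and 0.00545% ± 0.00109 of the reads of their hairpins. In the order of the ratio, all neighbouring names differed by over 2 SD with separate exact 95% intervals in both libraries, except let-7i and let-7g (difference 0.32 ± 0.33). The places of let-7c and let-7a rest on the even split of their shared 3p reads. With all of them, let-7c was at -5.84, above let-7e at -6.38. With none, let-7c lay below let-7f, and let-7a held only the 1 and 0 counts of let-7a-2-3p. The steps that do not involve these names do not depend on the split.

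**Figure D2:**
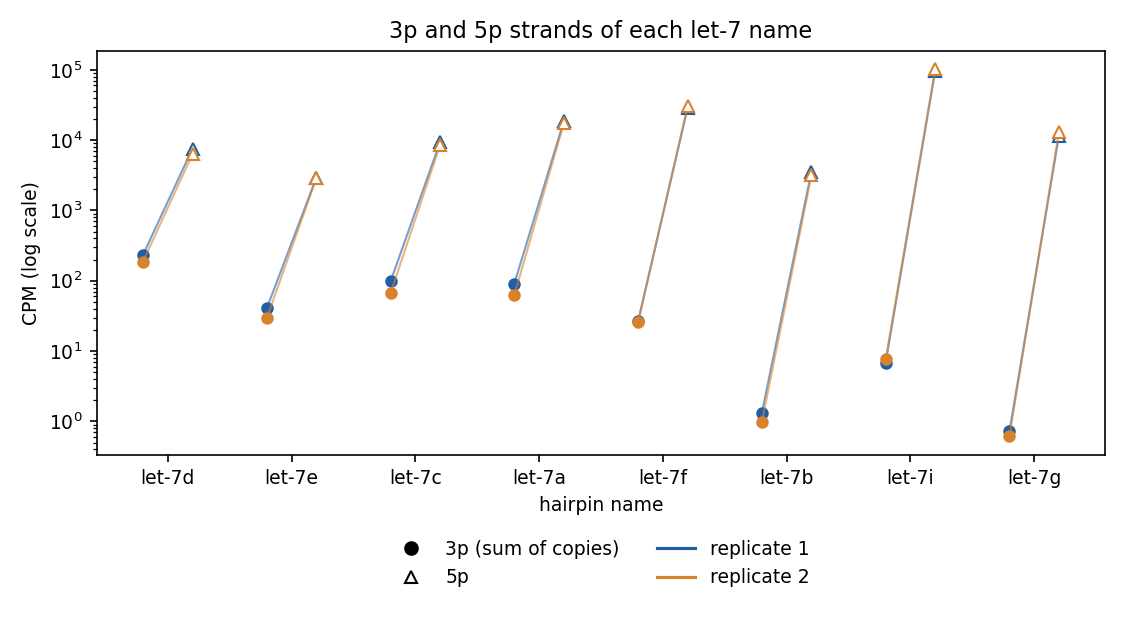
CPM (log axis) of the 3p strand (filled circles) and the 5p strand (open triangles) of each let-7 name, with a line joining the strands of a library. The lines are shortest for let-7d, whose mean log2 ratio was -5.05, and longest for let-7i and let-7g, at -13.73 and -14.05.

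An exact binomial test (two-sided, against an even split of the strands, Benjamini-Hochberg adjusted over all 337 hairpin names and both libraries) called the 3p strand lower in 8 of 8 let-7 names. A call also needed the same sign in both libraries and a mean over 2 SD. Of all names tested, 47.8% were called with 3p lower, and of the 149 names with at least 100 CPM over both strands 58.4% were. The adjusted p of each let-7 name was below the smallest number that double-precision arithmetic holds. This test covers counting error only.

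Counted from the lowest 3p over 5p ratio of these 149 names, with shared 3p reads split evenly, let-7g was rank 1, let-7i rank 3, let-7b rank 10, let-7f rank 17, let-7a rank 33, let-7c rank 45, let-7e rank 47 and let-7d rank 56. The lowest name outside let-7 was at -14.01, closer to let-7g (-14.05 ± 0.28) than the SD of let-7g. The order of the lowest names is therefore not settled. The ratio of a name with few 3p reads also depends on how deep its 5p strand was read, so a very low ratio can only be seen in an abundant hairpin. The names nearest to the let-7 median from below were miR-217 (-9.59 ± 0.25), miR-744 (-9.42 ± 0.14) and miR-129 (-9.19 ± 0.68). Nearest from above were the let-7 relative miR-98 (-9.02 ± 0.070), miR-382 (-8.89 ± 0.46) and miR-7b (-8.78 ± 0.89). Likeness was measured by the mean log2 ratio over the 2 libraries. Among the 79 other abundant names with a lower 3p strand, the median was -6.76.

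**Figure D3:**
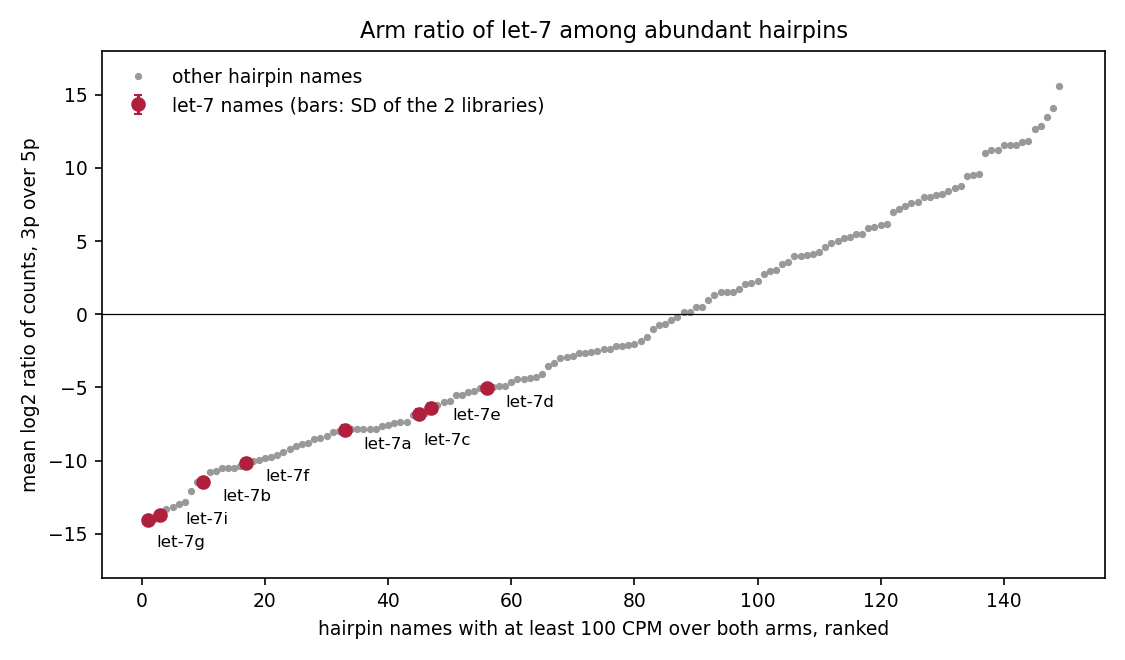
Mean log2 ratio of 3p over 5p counts for the 149 hairpin names with at least 100 CPM over both strands, ranked from lowest to highest, with the 8 let-7 names in red and their SD over the 2 libraries as bars, mostly smaller than the points. All let-7 names lie below 0, from rank 1 (let-7g) to rank 56 (let-7d). The distance from let-7g to the next name was smaller than the SD of let-7g.

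Passenger and guide levels were ordered differently when shared 3p reads were split evenly. let-7i was the highest of the 8 names in 5p and rank 6 in 3p, and let-7g was rank 4 in 5p and rank 8 in 3p. let-7d had the opposite pattern, rank 1 in 3p and rank 6 in 5p, and let-7e, the lowest guide, was rank 4 in 3p. The highest and lowest 3p sums differed by 315-fold and the guides by 34.5-fold. Spearman's rho of mean 3p and 5p CPM over the 8 names was -0.19, given as a description without a test, since the names share libraries and the shared 3p reads.

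The most frequent 3p reads often ended in a T that the hairpin does not encode. The deposited text table gives the most frequent read of each miRNA in each library, and these were laid on the RefSeq hairpins. In 5 of the 10 members, let-7a-1-3p, let-7c-2-3p, let-7b-3p, let-7f-1-3p and let-7f-2-3p, this read was 22 bases long and carried C22T in both libraries. The hairpin's base stands first in this token, and positions are counted from 1 at the 5′ end of the read. Of these members, let-7b-3p held only 11 and 8 counts in all and let-7f-1-3p 28 and 27, so their most frequent reads rest on few counts. The reads of the 5 members are shown with the base that does not match the hairpin in capitals.
let-7a-1-3p and let-7c-2-3p read: ctatacaatctactgtctttcT
let-7b-3p read: ctatacaacctactgccttccT
let-7f-1-3p read: ctatacaatctattgccttccT
let-7f-2-3p read: ctatacagtctactgtctttcT

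The other 5 members had reads that matched the hairpin to the last base. Those of let-7e-3p and let-7c-1-3p ended in CC at the annotated end, and that of let-7i-3p stopped 1 base before it. The read of let-7g-3p, which held 6 and 5 counts in all, ended in an encoded C at the annotated end in both libraries. let-7d-3p ended in a T that its hairpin encodes, so an added T could not be told from the encoded base there. These reads are shown for comparison, except that of let-7g-3p, whose start differed between the libraries.
let-7e-3p read: ctatacggcctcctagctttcc
let-7c-1-3p read: ctgtacaaccttctagctttcc
let-7i-3p read: ctgcgcaagctactgccttgc
let-7d-3p read: ctatacgacctgctgcctttct

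As background from human cells, most let-7 precursors leave Drosha with a shortened 3′ overhang, and the enzymes TUT4 and TUT7 add a single U to it before Dicer cuts. The precursors of let-7a-2, let-7c and let-7e have the usual overhang and are known not to need this step. The human let-7c hairpin is the counterpart of mouse let-7c-1. In these data let-7g-3p and let-7i-3p, whose precursors are not among those named, also had most frequent reads without an added T. The 3′ end of the precursor is the 3′ end of the 3p strand. The origin of the T in the reads that carried it was not tested.

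Over the whole table, a last T marked by the authors as a mismatch or an extension in both libraries was found in 50 of 318 other 3p arms (15.7%) and in 18 of 301 5p arms (5.98%), among arms with at least 5 counts in each library. By the same mark it was 5 of 10 in the members, of which the let-7a-1 and let-7c-2 rows are the same reads. This mark includes T that the hairpin encodes beyond the annotated end, and it misses some T that is not encoded, as in miR-140-3p. Among the arms whose reads could be laid on a RefSeq hairpin, a T that is not encoded ended the read in both libraries in 18 of 221 other 3p arms (8.14%) and 2 of 237 5p arms (0.844%). Fewer than 80% of these arms could be judged, so this check is void for the table as a whole and describes only the judged arms. No test was made of this difference, and the table gives no count of the reads with and without the T.

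The 5′ ends, which set the seed, can be judged only from the most frequent read, as the spread of starts is not given. In 9 of the 10 members this read started at the annotated base in both libraries. The let-7a-1 and let-7c-2 rows among them are the same reads. How often this holds over the whole table was not counted. The exception was let-7g-3p, with 6 and 5 reads in all, whose most frequent read started 1 base later in replicate 1 and at the annotated base in replicate 2. In the same 9 members the most frequent read was identical in both libraries.

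The passenger levels of several members differed between the libraries by more than counting error. The exact two-sided binomial test of each miRNA's counts, with the expected share from the library totals, was adjusted over all 710 miRNAs with at least 10 counts over both libraries. Of these 27.9% were called different, 19.6% higher and 8.31% lower in replicate 1. All 10 members could be tested, and 5 were called higher in replicate 1 and 0 lower. The test compares libraries, not conditions.

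The called members were let-7d-3p (log2 ratio of replicate 1 over replicate 2 0.32, Benjamini-Hochberg adjusted p = 1.03e-09), let-7a-1-3p and let-7c-2-3p (0.54, adjusted p = 4.27e-10 for each of these equal rows), let-7e-3p (0.46, adjusted p = 0.000777) and let-7c-1-3p (0.83, adjusted p = 0.0442). let-7c-1-3p was not called under either other scaling or without the filter on low counts, where its adjusted p was 0.071 to 0.101. The members' median log2 ratio, with both of the equal rows counted, was 0.36, against 0.12 for all miRNAs tested. Scaled by TMM the medians were 0.24 and 0.0037, and 80 miRNAs were higher and 107 lower in replicate 1, in place of 139 and 59. With DESeq2 size factors these numbers were 88 and 101.

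The other 5 members were not called. let-7f-2-3p (0.038) and let-7f-1-3p (0.013) were nearly equal in the libraries, with a sign that turned under TMM and DESeq2 scaling, and let-7i-3p was at -0.16. let-7b-3p (0.40) and let-7g-3p (0.20), with 11 counts or fewer in each library, were not called either. The guides had log2 ratios from -0.19 (let-7g-5p) to 0.26 (let-7d-5p) and a median of 0.057, and 4 were called higher and 3 lower in replicate 1.

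**Figure D4:**
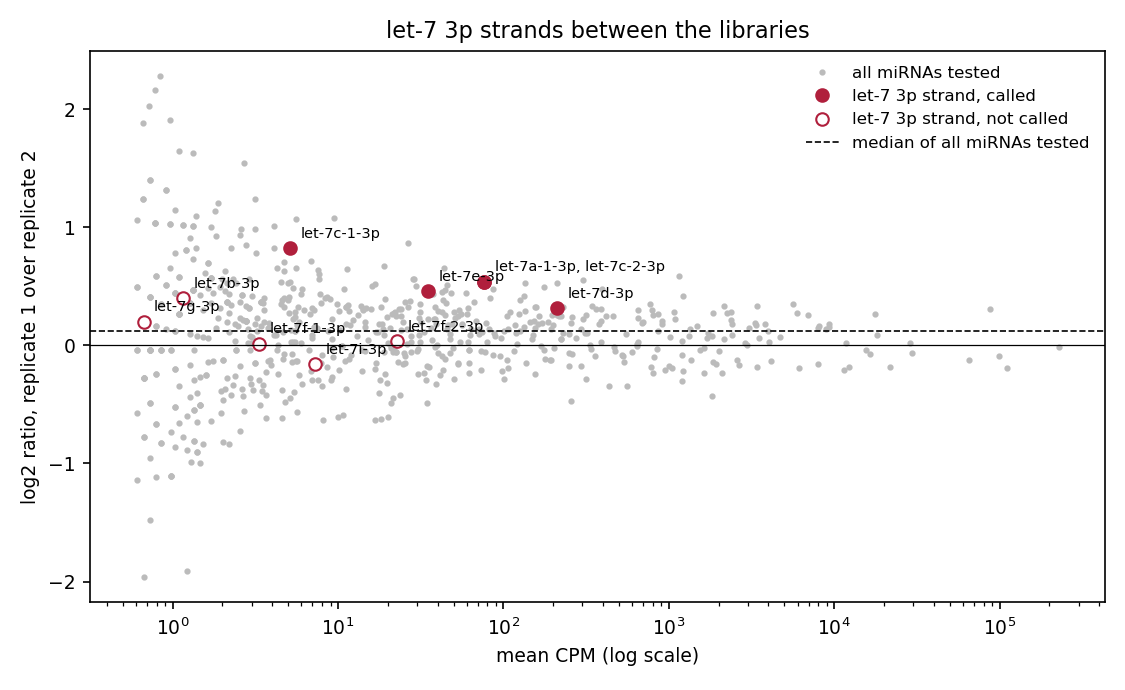
Log2 ratio of replicate 1 over replicate 2 by library totals against mean CPM (log axis) for 710 miRNAs, with let-7 3p strands in red, filled where the exact binomial test called a difference. The dashed line is the median of all miRNAs tested, 0.12, and the called let-7 strands lie between 0.32 and 0.83.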

How the data were processed

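Small RNA of newborn CD-1 mouse retina was sequenced in 2 libraries of 1 group. Per the labels' protocols, RNA of miRNA size was cut from a gel and adapters were ligated. The submitters' processing notes name bcl2fastq 2.17.1.14. No aligner, counter, trimming step or genome build is given in the sources used here. The deposited count table holds estimated counts, unscaled. Of the 10 members, 8 had whole numbers in both libraries. The deposited CPM table was scaled by a total chosen by the authors, and the columns sum to 88.5% of a full library. The CPM computed here, by the total of the count table, was 1.13 times the deposited CPM. The third deposited table holds text, the most frequent read of each miRNA, compared, per the file headers, with miRBase release 21.

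Counts were rounded for tests, with 0.5 added for ratios. Numbered copies were summed against an arm listed without a number. Hairpin names needed 10 counts or more, both arms together, in every library. The arm and library tests were exact binomial tests with Benjamini-Hochberg adjustment at 0.05 over the whole table, and exact intervals are Clopper-Pearson at 95%. Tests were checked on simulated counts drawn with counting error only. That check does not cover the further spread between libraries seen in these data. No p was computed over the members alone. The members, lists and tests were chosen with earlier results of these data known. The miRNAs named were all members, their guides, miR-98, let-7a-2, the cluster neighbours and the 3 names on each side of the let-7 median in arm ratio. Alternatives were other scalings (edgeR 4.0.16 TMM, DESeq2 1.42.0 size factors), other filters, 1 added to each count, each library alone, and other treatments of the shared reads. Software was R 4.3.3, Python 3.11.15, SciPy 1.17.1, pandas 2.3.3 and NumPy 2.4.6, with matplotlib 3.10.9 for plots.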

Additional observations from a re-analysis of the deposited data

How the results depend on the processing

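The call of a lower 3p strand in 8 of 8 let-7 names held under every alternative tried, including each library alone. Over the whole table, 161 names became 123 to 172, but the number of names tested also changes with the filter. The lowest, 123, came with at least 100 counts required over both arms, which leaves fewer names to test. With all shared 3p reads given to let-7a-1 the log2 ratio was -6.90 for let-7a and -10.80 for let-7c. With all given to let-7c-2 it was -5.84 for let-7c, above let-7e, and let-7a kept 1 and 0 counts of 3p. Under TMM, DESeq2 size factors and no filter on low counts, 4 members were called different between the libraries in place of 5. let-7c-1-3p was no longer called there, and both numbers count the equal rows of let-7a-1-3p and let-7c-2-3p separately. The log2 ratio of let-7f-1-3p turned to -0.11 under TMM and -0.089 with DESeq2 size factors, and that of let-7f-2-3p to -0.080 and -0.064, and none of these was called under any scaling. Neighbouring levels called apart numbered 4 of 8 with both libraries and 6 with either library alone, where no SD applies. The summed level of the members ran from 381 to 498 CPM with 1 library left out and was 389 CPM by the deposited scaling. At the depth of these libraries the levels of let-7b-3p and let-7g-3p, at 11 counts or fewer, are known only roughly. A difference near 2 SD of 2 libraries is weak evidence beyond them. No paired analysis was possible because the study holds 1 group.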

Other observations

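Passenger strands of the hairpins that share a cluster with let-7e and let-7c-1 took other levels. On chromosome 17, miR-99b-3p was at 734 and 834 CPM and miR-125a-3p at 76.0 and 79.2 CPM. let-7e-3p lay below both, by a log2 ratio of -4.50 ± 0.46 and -1.17 ± 0.37 (SD, n = 2), and both pairs were apart by the rule used for neighbouring levels. On chromosome 16, let-7c-1-3p held 55 and 30 counts and miR-99a-3p 4 and 9. The log2 ratio of 2.65 ± 1.37 lay within 2 SD. miR-100-3p, from the cluster of let-7a-2, held 0 and 2 counts, beside 1 and 0 counts for let-7a-2-3p, and miR-125b-1-3p of that cluster was at 167.5 ± 0.155 CPM.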
